A study of Mus musculus with 6 samples.

Results

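The 38 genes described here act in DNA replication and mitosis, and they were taken by symbol from the 55291 genes counted in mouse dorsal skin. All 38 were found, and all 38 were among the 19971 genes that passed the filter on low counts. RNA was sequenced from 6 samples of whole dorsal skin at day 40, 3 wild type (strain C57BL/6, replicates 1 to 3) and 3 tight-skin or Tsk (strain B6.Cg-Fbn1Tsk/J, replicates 4 to 6). The labels write the Tsk genotype as Fbn1+/-, which as a notation stands for loss of a copy, although the Tsk allele carries a duplicated stretch of Fbn1, the gene of the microfibril protein fibrillin 1. They name no other allele, agent or treatment. Since the labels number the samples without tying them to animals, the spread behind each p is that of these samples and may be technical. Tsk is a germline allele, present in every cell type of the piece of skin, from epidermis and hair follicles to fat and the underlying muscle.

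A cell that divides licenses its replication origins and copies its DNA, for which the Mcm2 to Mcm7 helicase, the clamp Pcna and a supply of nucleotides are needed. Cyclins switch on their kinases in order, from entry into S phase to mitosis. In mitosis the Aurora and Polo kinases, the spindle motors, the checkpoint and the ubiquitin machinery of anaphase act. In skin, most dividing cells lie in the basal layer of the epidermis and, in growing hair follicles, in the matrix around the papilla. Transcripts of the mitotic genes peak late in the cycle and are scarce in resting cells, whereas several replication proteins and their transcripts also last outside S phase.

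Promoters of many mitotic genes are known to combine CCAAT boxes, which bind the factor NF-Y, with a cell cycle genes homology region (CHR), which binds complexes built on MuvB. Whether these elements bear on the members' levels was not tested. The 6 windows below are those of the first 6 members by p that held both elements, under the conditions given with the processing. Each holds the 250 bases before the RefSeq start on build GRCm38.p6, 5′ to 3′ on the gene's strand, with each CCAAT box (on either strand, so also read as ATTGG) and each CHR match (TTTGAA on either strand, or the palindrome TTTAAA) in capitals. They are chr19:37376132-37376381 on the plus strand for Kif11, and, all on the minus strand, chr1:189688087-189688336 for Cenpf, chr7:135716380-135716629 for Mki67, chr11:99024190-99024439 for Top2a, chr9:70421555-70421804 for Ccnb2 and chr6:88898781-88899030 for Mcm2.
Kif11 promoter: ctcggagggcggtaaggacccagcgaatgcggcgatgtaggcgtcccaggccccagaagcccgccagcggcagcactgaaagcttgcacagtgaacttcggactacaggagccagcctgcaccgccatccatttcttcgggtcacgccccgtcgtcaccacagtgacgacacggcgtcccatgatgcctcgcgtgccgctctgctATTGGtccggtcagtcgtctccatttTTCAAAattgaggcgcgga
Cenpf promoter: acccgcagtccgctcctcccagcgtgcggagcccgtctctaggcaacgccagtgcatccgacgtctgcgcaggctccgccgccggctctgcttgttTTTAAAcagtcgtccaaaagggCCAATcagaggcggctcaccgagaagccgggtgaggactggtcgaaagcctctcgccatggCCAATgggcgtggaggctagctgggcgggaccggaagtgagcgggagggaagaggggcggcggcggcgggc
Mki67 promoter: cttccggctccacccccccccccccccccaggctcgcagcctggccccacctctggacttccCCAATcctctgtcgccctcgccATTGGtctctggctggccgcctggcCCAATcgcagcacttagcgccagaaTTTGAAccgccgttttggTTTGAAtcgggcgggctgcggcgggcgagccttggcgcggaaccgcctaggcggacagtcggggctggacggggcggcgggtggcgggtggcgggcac
Top2a promoter: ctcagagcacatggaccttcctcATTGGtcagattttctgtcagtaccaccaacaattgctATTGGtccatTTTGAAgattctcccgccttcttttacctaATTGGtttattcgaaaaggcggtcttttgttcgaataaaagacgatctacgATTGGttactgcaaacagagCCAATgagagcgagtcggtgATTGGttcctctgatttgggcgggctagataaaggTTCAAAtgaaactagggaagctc
Ccnb2 promoter: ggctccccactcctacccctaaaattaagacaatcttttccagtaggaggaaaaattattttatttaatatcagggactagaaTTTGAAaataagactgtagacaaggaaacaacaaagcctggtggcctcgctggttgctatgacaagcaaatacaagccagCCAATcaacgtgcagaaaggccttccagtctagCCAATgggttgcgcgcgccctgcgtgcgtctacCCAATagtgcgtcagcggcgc
Mcm2 promoter: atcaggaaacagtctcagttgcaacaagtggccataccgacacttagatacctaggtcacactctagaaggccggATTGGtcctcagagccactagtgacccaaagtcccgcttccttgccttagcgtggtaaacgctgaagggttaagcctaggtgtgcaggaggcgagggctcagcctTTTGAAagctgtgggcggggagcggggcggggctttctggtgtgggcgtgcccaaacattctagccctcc

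Of the 38 members, 32 matched an entry of the RefSeq promoter table. Each of these had 1 window, at the start nearest the gene's start. The 32851 windows set beside them are all those of the table, with no choice of start and whether or not the gene was expressed in skin. The 2 sets were thus not chosen alike. A CCAAT box on either strand stood in 28 of the 32 windows (87.5%), against 33.9% of the 32851 windows of the same length in the table. A CHR match on either strand stood in 16 (50%), against 25.2%, and both elements together in 14 (43.8%), against 8.78%. Among cyclin and mitosis members 14 of 23 windows (60.9%) held a CHR match, and among replication members 2 of 9 (22.2%), those of Mcm2 and Mcm5. The E2F motif (TTTCCCGC, TTTGGCGC or TTTCGCGC on either strand) was found in 3 of 9 replication windows (Mcm5, Mcm6 and Mcm7) and 2 of 23 others (Cdk1 and Ncapd2), against 1.53% of all windows. As spelled, the 3 motifs can share a base at their edges. The Top2a window held 6 CCAAT boxes and 2 CHR matches, and the Kif11 window 1 of each. A match of letters is a description and does not show that a factor was bound there.

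No member passed the test between Tsk and wild-type skin (edgeR's quasi-likelihood test, Benjamini-Hochberg adjusted p under 0.05 over all genes), and 5 had an unadjusted p under 0.05, all with lower values in Tsk. Those 5 were Aurka, Ccnb1, Ube2c, Kif11 and Ccne2. Over all genes tested 3.42% were called in either direction and 0.696% were called lower. An unadjusted p under 0.05 was found in 4007 of the 19971 genes in either direction, and in 7.94% with a lower value in Tsk. With 37 of the 38 log2 fold changes below 0, the members' median was -0.35 (range -0.98 to 0.02), where the median of all genes was -0.03 and 53.0% of genes were below 0. In 4 members, Aurka, Ccne2, Ube2c and Kif11, every Tsk library lay below every wild-type library, and 10.6% of all genes did the same. That share of the members is near the background, so it is no result about them.

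**Figure D1:**
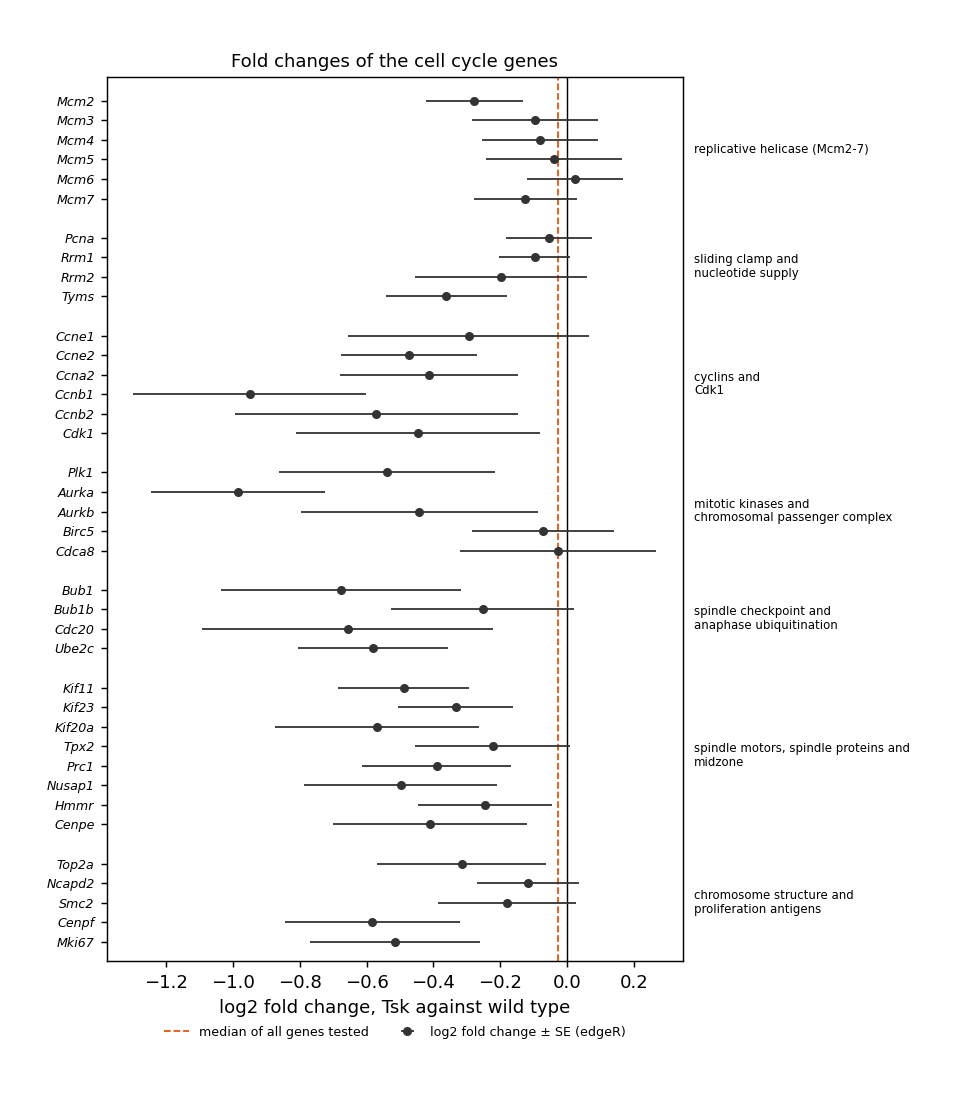
Log2 fold change of each of the 38 cell cycle genes, Tsk against wild type (x axis), in rows grouped by role, with the point at the edgeR estimate, the bar its SE and the dashed line the median of all genes tested (-0.03). Estimates for the helicase lie near the dashed line and those for cyclins and mitosis mostly left of it, down to -0.98 for Aurka. No gene passed the test, and with library totals alone as the scaling 24 of the 38 estimates, not 37, are below 0.

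The signs depend on how the libraries were scaled. With library totals alone, 24 members were below 0 and their median was -0.08, while the median of all genes moved up to 0.25, so the members lay 0.33 below the median of all genes under that scaling and 0.32 below it under TMM. The medians of the member groups were -0.09 for the helicase, -0.15 for the clamp and nucleotide supply and -0.46 for the cyclins with Cdk1. They were -0.44 for the mitotic kinases and the chromosomal passenger complex, and -0.62 for the checkpoint and anaphase genes. For the spindle genes the median was -0.40 and for the chromosome genes -0.31. Across the 10 replication members the median was -0.10 and across the 28 cyclin and mitosis members -0.44. With library totals alone these were 0.17 and -0.20. All levels below are CPM, that is counts scaled by library totals adjusted with TMM, listed for wild-type replicates 1, 2 and 3 and then for Tsk replicates 4, 5 and 6.

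Mcm2 to Mcm7 encode the 6 subunits of the replicative helicase, which is loaded on origins as a ring and unwinds DNA. Mcm6 stood at 25.4, 19.1 and 20.4 CPM in wild type and at 23.8, 20.7 and 21.5 CPM in Tsk. The ranges overlapped fully, wild-type replicate 1 was the highest of the 6, and the log2 fold change was 0.02 ± 0.14 (SE), with a 95% interval of -0.30 to 0.35. Mcm2 stood at 17.8, 14.97 and 15.7 CPM in wild type and 15.2, 12.5 and 12.3 CPM in Tsk. Only Tsk replicate 4 reached the wild-type range for this subunit, and its log2 fold change was -0.28 ± 0.14 (edgeR adjusted p = 0.329). The other 4 subunits lay between -0.13 and -0.04, each with an SE of 0.15 to 0.20. Within wild type the highest library was 1.19 to 1.54 times the lowest across the 6 subunits.

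Pcna, the sliding clamp that holds polymerases on DNA, was the most abundant member per length of merged exon, at 10.6 ± 0.87 CPM per kb in wild type (SD, n = 3). It stood at 27.3, 23.2 and 25.7 CPM in wild type and 27.3, 23.7 and 22.4 CPM in Tsk. Both groups reached the same highest value, and the log2 fold change was -0.05 ± 0.13, with an interval of -0.35 to 0.24. Rrm1, the large subunit of the ribonucleotide reductase that makes deoxynucleotides, varied least of all members, at 46.1, 49.4 and 48.3 CPM in wild type and 46.9, 43.9 and 43.7 CPM in Tsk. Wild-type replicate 1 was the lowest of its group for Rrm1 and the highest for most other members. The small subunit Rrm2, which is made in S phase and destroyed in mitosis, stood at 12.5, 6.41 and 8.20 CPM in wild type and at 9.59, 7.20 and 6.96 CPM in Tsk. The Rrm2 values spread 1.95-fold within wild type, and those of Rrm1 spread 1.07-fold. Tyms, the thymidylate synthase, had the lowest fold change of the 10 replication members, at -0.36 ± 0.18 (edgeR adjusted p = 0.309). Its levels were 12.5, 10.95 and 9.13 CPM in wild type and 7.36, 8.18 and 9.83 CPM in Tsk, with Tsk replicate 6 inside the wild-type range.

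Cyclin E, encoded by Ccne1 and Ccne2, drives entry into S phase with its kinase. Ccne2 (chr4:11191351-11204779 on mm10) stood at 5.51, 4.60 and 4.10 CPM in wild type and 3.01, 3.79 and 3.44 CPM in Tsk. All Tsk libraries lay below all wild-type libraries by a narrow gap, and the log2 fold change was -0.47 ± 0.20 (edgeR adjusted p = 0.240). Ccne1 was the least abundant member, at 1.04 ± 0.34 CPM in wild type and 0.84 ± 0.20 CPM in Tsk (SD, n = 3 each), and its 13 to 23 counts per library limit what can be told of it.

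Ccnb1, cyclin B1, which with Cdk1 starts mitosis, lies at chr13:100778650-100786570. It stood at 5.40, 2.20 and 4.22 CPM in wild type and 2.49, 1.496 and 2.16 CPM in Tsk. Wild-type replicate 2 fell among the Tsk libraries, while the other 2 wild-type libraries lay above all 3. The log2 fold change of Ccnb1 was -0.95 ± 0.35, which puts Tsk at 52.0% of the wild-type mean with a 95% interval of 0.299 to 0.895 for the ratio, and it did not pass after adjustment (edgeR adjusted p = 0.174). Ccnb2, cyclin B2, spread more within wild type than between the groups, at 3.12, 0.97 and 3.42 CPM against 1.45, 1.54 and 2.07 CPM in Tsk. Wild-type replicate 2 was the lowest of all 6 for Ccnb2, below every Tsk library. In Cdk1, the kinase itself, that library was again the lowest of all 6, with 5.79, 2.01 and 4.10 CPM in wild type and 3.63, 2.90 and 2.26 CPM in Tsk. Ccna2, cyclin A2, which acts in S phase and early mitosis, ran from 4.08 to 8.74 CPM in wild type and from 4.91 to 5.36 CPM in Tsk. The Tsk libraries were within 1.09-fold of each other for Ccna2 and the wild-type libraries within 2.14-fold.

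Aurka, Aurora kinase A, which matures centrosomes and builds the spindle poles, had the lowest estimate of the 38. It lies at chr2:172356190-172370535 and held 72, 76 and 97 counts in the wild-type libraries and 56, 38 and 61 counts in the Tsk ones. These are 4.01, 4.92 and 6.03 CPM in wild type and 2.90, 1.78 and 2.87 CPM in Tsk. The groups did not overlap, and wild-type replicate 1, the highest library for 31 of the other members, was here the lowest of its group. The log2 fold change was -0.98 ± 0.26, which puts Tsk at 50.5% of the wild-type mean with a 95% interval of 0.335 to 0.763 for the ratio. It missed the threshold after adjustment (edgeR adjusted p = 0.0797). Aurka was called in 3 of 20 alternative fits (no filter on low counts, DESeq2, and limma-voom with sample weights). Its estimate ranged from -1.10 to -0.55 over the 20, and its adjusted p from 0.0237 to 0.422.

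**Figure D2:**
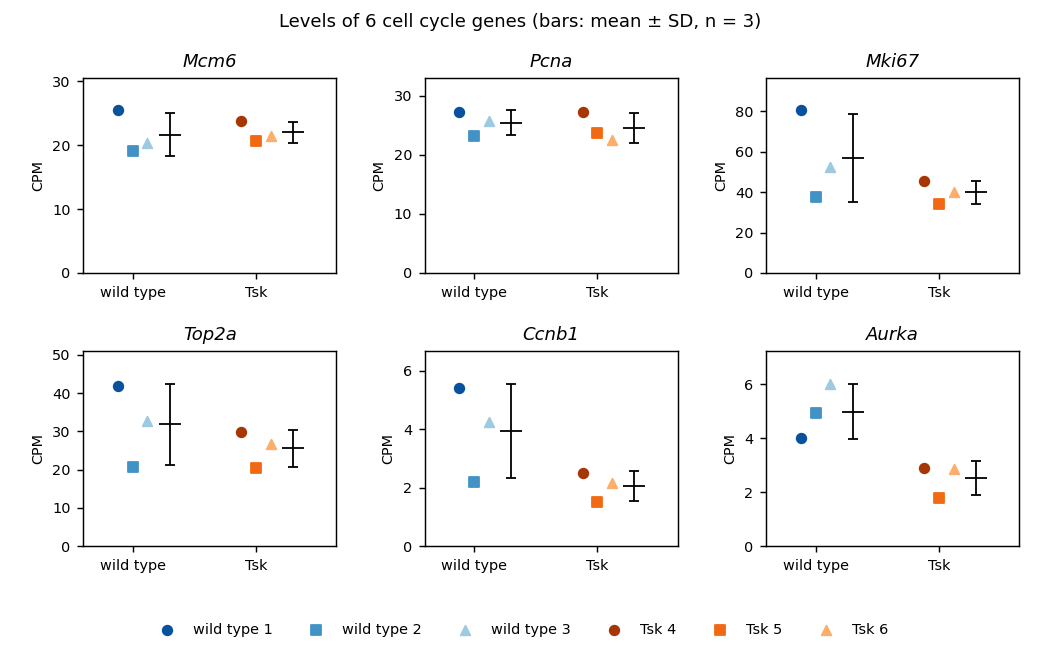
CPM on the TMM-adjusted scale (y axis, from 0) of Mcm6, Pcna, Mki67, Top2a, Ccnb1 and Aurka in each library, by group, with the mean ± SD of 3 libraries beside the points. Mcm6 and Pcna overlap between the groups, Mki67, Top2a and Ccnb1 show a wide spread in wild type, and the Aurka groups do not overlap (4.01 to 6.03 against 1.78 to 2.90 CPM).

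The other mitotic kinases had wider intervals. Plk1, the Polo kinase of mitotic entry and exit, stood at 3.78, 1.88 and 2.67 CPM in wild type and 1.81, 1.45 and 2.49 CPM in Tsk, and the groups overlapped at a log2 fold change of -0.54 ± 0.32. Aurkb, the kinase of the chromosomal passenger complex, which corrects faulty attachments of chromosomes to the spindle, stood at -0.44 ± 0.36. Birc5 (survivin) and Cdca8 (borealin), which hold Aurkb at the centromere, stood close to 0, at -0.07 ± 0.21 and -0.03 ± 0.29. The 95% interval of Aurkb, -1.25 to 0.37, spans both 0 and the estimate of Aurka.

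Bub1 and Bub1b carry the spindle checkpoint, which delays anaphase until every chromosome is attached, and Cdc20 is the activator of the anaphase-promoting complex that the checkpoint restrains. Cdc20 had the widest spread within wild type of the 38, 3.86-fold, at 5.01, 1.30 and 3.91 CPM against 2.49, 1.64 and 2.40 CPM in Tsk. Wild-type replicate 2 lay below all Tsk libraries, and the log2 fold change was -0.66 ± 0.44 (edgeR adjusted p = 0.451). Bub1 stood at 3.34, 1.56 and 1.93 CPM in wild type and 1.71, 0.98 and 1.60 CPM in Tsk. Its groups overlapped at a log2 fold change of -0.68 ± 0.36, from 21 to 60 counts per library. Bub1b stood at -0.25 ± 0.27.

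Ube2c (chr2:164769898-164778822), the ubiquitin-conjugating enzyme that works with the anaphase-promoting complex, was one of the members whose groups separated. It stood at 6.51, 4.54 and 6.96 CPM in wild type and 4.46, 3.32 and 4.28 CPM in Tsk. The gap between wild-type replicate 2 and Tsk replicate 4 was small, and the log2 fold change was -0.58 ± 0.22 (edgeR adjusted p = 0.195).

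Kif11 (chr19:37376403-37421859), the motor that pushes the spindle poles apart, also separated, at 13.2, 8.16 and 10.6 CPM in wild type and 7.98, 7.06 and 7.81 CPM in Tsk. The 3 Tsk libraries were within 1.13-fold of each other, the lowest wild-type library was just above them, and the log2 fold change was -0.49 ± 0.20 (edgeR adjusted p = 0.210). Kif20a and Kif23, motors of the spindle midzone and of cytokinesis, stood at -0.57 ± 0.31 and -0.33 ± 0.17. Prc1, which bundles midzone microtubules, stood at -0.39 ± 0.22, and Cenpe, the kinetochore motor that lines up chromosomes, at -0.41 ± 0.29. Nusap1, Tpx2 and Hmmr, which organise spindle microtubules, stood at -0.50 ± 0.29, -0.22 ± 0.23 and -0.25 ± 0.20. In all 7 of these genes besides Kif11, at least 1 Tsk library reached the wild-type range.

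Mki67, whose product coats mitotic chromosomes and is the common marker of proliferating cells, held 581 to 1444 counts in the wild-type libraries and 729 to 878 in those of Tsk. It stood at 80.4, 37.6 and 52.6 CPM in wild type and 45.5, 34.1 and 39.9 CPM in Tsk. Wild-type replicate 1 was 2.13 times wild-type replicate 2, and 2 of the 3 Tsk libraries exceeded the latter. The log2 fold change was -0.51 ± 0.26 (edgeR adjusted p = 0.308), and it was -0.16 without wild-type replicate 1. Top2a, the topoisomerase that untangles sister DNA, stood at 42.0, 20.6 and 32.8 CPM in wild type and 29.8, 20.3 and 26.7 CPM in Tsk, a log2 fold change of -0.31 ± 0.25. The Tsk values all lay within or just below the wild-type range. Cenpf, a kinetochore protein made in G2, stood at 20.8, 10.4 and 14.9 CPM in wild type and at 12.6, 8.23 and 9.98 CPM in Tsk (-0.58 ± 0.26, edgeR adjusted p = 0.261). Only Tsk replicate 4 exceeded the lowest wild-type library for Cenpf. The condensin subunits Smc2 and Ncapd2, which compact chromosomes, stood at -0.18 ± 0.21 and -0.12 ± 0.15.

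The members also differed between libraries of the same group, and mostly in the same order. Wild-type replicate 1 was the highest of the 6 libraries in 31 of the 38 members, against 18.3% of all genes tested, and within wild type replicate 2 was the lowest in 32. The order replicate 1, then 3, then 2 held in 29 members (76.3%), against 22.2% of all genes. Summed over the members, CPM was 549.5, 358.2 and 446.2 in wild type and 413.0, 343.4 and 370.8 in Tsk. Wild-type replicate 2 thus lay inside the range of the Tsk libraries, and the other 2 wild-type libraries lay above it. The lowest of the 6 libraries was Tsk replicate 5 in 15 members and wild-type replicate 2 in 13.

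**Figure D3:**
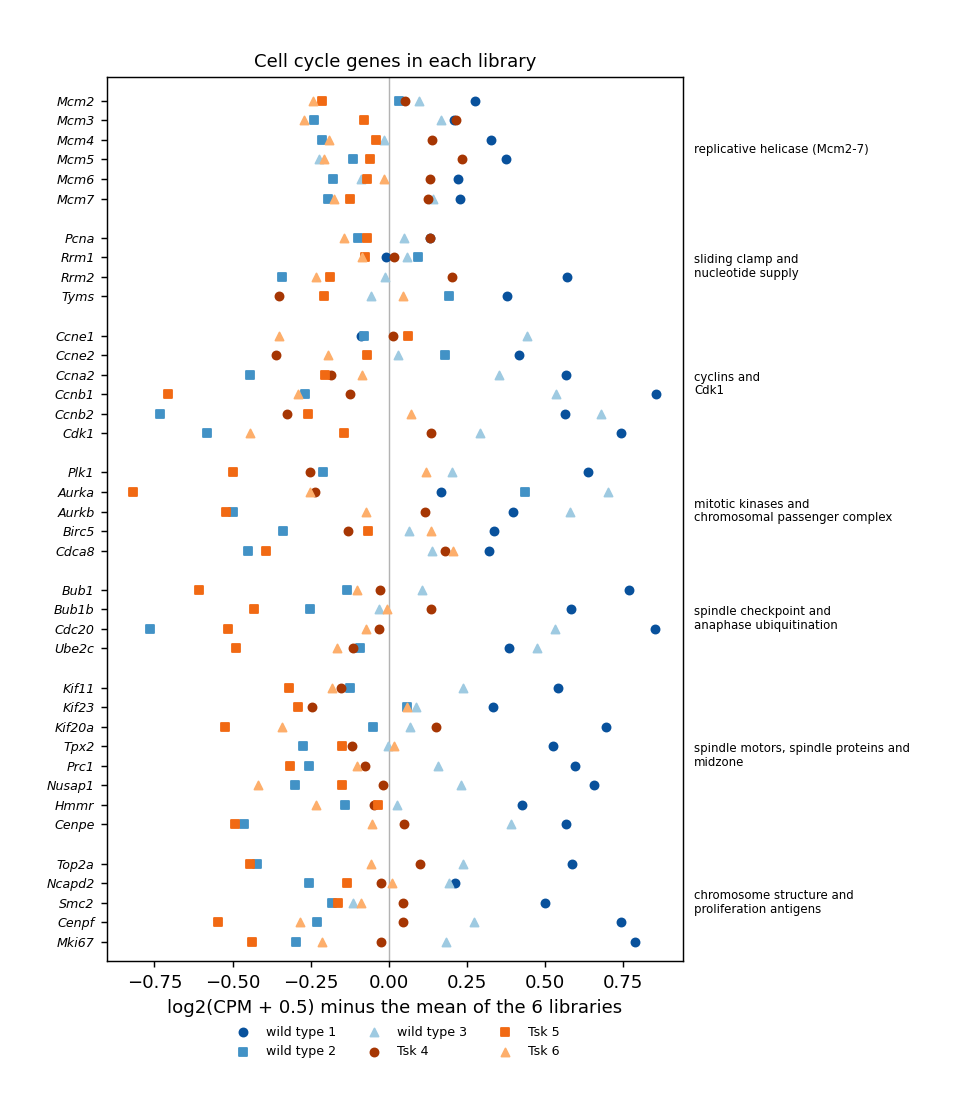
Level of each of the 38 genes in each library, as log2(CPM + 0.5) minus the mean of the 6 libraries (x axis), in rows grouped by role, with blue points for wild type and orange to brown points for Tsk. Wild-type replicate 1 (dark blue circles) is the rightmost point in 31 of the rows, and wild-type replicate 2 (blue squares) is the leftmost in 13.

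The spread was wider in wild type. The SD of log2(CPM + 0.5) was larger in wild type than in Tsk in 33 of 38 members (86.8%), against 51.7% of all genes, and this held for 26 of 28 cyclin and mitosis members and 7 of 10 replication members. Besides Cdc20, the widest ratios of the highest to the lowest wild-type library were 3.52 for Ccnb2 and 2.88 for Cdk1. The summed CPM of cyclin and mitosis members divided by that of replication members was 1.59, 1.05 and 1.38 in wild type and 1.11, 1.01 and 1.22 in Tsk. The 2 groups overlapped in this ratio, and its highest value was again that of wild-type replicate 1. The direction of the members' median did not turn when any 1 library was left out, but its size moved, from -0.46 without wild-type replicate 2 to -0.16 without wild-type replicate 1. Without wild-type replicate 1, 27 members were below 0. Without wild-type replicate 2 all 38 were, 22 of them with separated groups, where 14.01% of all genes were separated in the same way, and still none was called. That library was the lowest of wild type in 32 members, against 33.4% of all genes, so leaving it out favours separation in the members. The count of 22 is therefore no result about Tsk. Lower Tsk values in separated groups were found in 3 members without wild-type replicate 1 (20.5% of all genes) and in 3 without wild-type replicate 3 (14.2%). Such groups were found in 5 without Tsk replicate 5 (14.8%), in 7 without Tsk replicate 6 (17.7%) and in 9 without Tsk replicate 4 (14.98% of all genes). The counts without wild-type replicates 1 and 3 lie below the share of all genes, and those without Tsk replicates 5 and 6 near it. The count without Tsk replicate 4 lies above it, but that library was the highest of Tsk in 26 members, against 27.8% of all genes.

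Of 111 further genes of the cell cycle, 110 were tested and none passed, while 11 had an unadjusted p under 0.05, 8 of them lower in Tsk. Over all genes, 4007 of 19971 had such a p, and 7.94% had it with a lower value in Tsk. The median log2 fold change of the 110 further genes was -0.17, and 85 were below 0. The 44 other mitosis genes had 39 below 0 and a median of -0.35, and the 30 other replication genes had 24 below 0 and a median of -0.20, with no gene of either list called. Smc4, the partner of Smc2 in condensin and the most abundant of the mitosis list, stood at -0.20 ± 0.13, and securin (Pttg1) at -0.19 ± 0.20. Pola1, the catalytic subunit of the polymerase that starts DNA strands, stood at -0.20 ± 0.15, and Uhrf1, which copies DNA methylation at forks, at -0.31 ± 0.22.

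The regulators upstream of the members showed no call either. In the list of transcription regulators 15 of 19 were below 0 (median -0.14), with the pocket protein gene Rbl2 at -0.15 ± 0.14 and the repressor E2f6 at -0.39 ± 0.24. Among G1 cyclins, their kinases and Cdc25 phosphatases only 3 of 11 were below 0, with a median of 0.06. Ccnd2 and Ccnd1, the D cyclins that carry growth signals to the retinoblastoma protein, stood at 0.28 ± 0.20 and 0.06 ± 0.15. Ccnd3, named here after its values were seen, stood at 30.4, 27.4 and 28.6 CPM in wild type and 35.5, 44.2 and 44.9 CPM in Tsk. All Tsk values of Ccnd3 lay above all wild-type values, at a log2 fold change of 0.53 ± 0.13 (edgeR adjusted p = 0.0642), and it was called in 7 of the 20 alternative fits. Of 7 CDK inhibitors 6 were tested and none passed, with Cdkn1a (p21) at -0.01 ± 0.18 and Cdkn1b (p27) at -0.05 ± 0.15. Cdkn2a held 0 to 3 counts per library and did not pass the filter.

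Since no member passed the test, a difference between the groups was not established. Were there one, fewer dividing cells and less RNA per dividing cell could not be told apart in whole skin. The skin samples also differed in their make-up. Markers of the basal epidermis, where skin cells divide, were all 8 below 0 with a median of -0.43 and none called, and their summed CPM was 9950, 7438 and 7509 in wild type and 7712, 5244 and 5067 in Tsk. Wild-type replicate 1 was the highest library there too, and Tsk replicates 5 and 6 the lowest. The members' summed CPM per 1000 CPM of basal markers was 55.2, 48.2 and 59.4 in wild type and 53.5, 65.5 and 73.2 in Tsk, so on that scale 2 Tsk libraries were the highest and the groups overlapped. Krt5 and Dst, the most abundant genes of the basal list, stood at -0.60 ± 0.31 and -0.46 ± 0.21. Dst was highest in wild-type replicate 2 (2191, 2444 and 2146 CPM in wild type), whereas every other basal marker was highest in wild-type replicate 1. Whether Dst reads basal cells alone was not tested, and it enters the sums above.

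Markers of the hair matrix and inner root sheath mostly went the other way from the members. Of 11 tested, 5 were called higher in Tsk, with a median of 1.11. The summed CPM of the list was 74.0, 76.5 and 42.7 in wild type and 92.6, 88.5 and 88.4 in Tsk. Among those called, Krt25, Krt27 and Krt71, named after their values were seen, held 0 to 4, 4 to 6 and 0 to 24 counts in wild type. They passed the filter on low counts only through Tsk, so the calls and the median lean upward. Tchh, the most abundant of the list, stood at -0.16 ± 0.25. Markers of satellite cells and myoblasts, some of which can divide, had 3 of 6 called lower, at 69.4, 69.2 and 74.7 against 35.1, 31.3 and 24.8 summed CPM. The calls include Myog and Mymk, named here after their values were seen. Pax7 (-0.61 ± 0.27), Myf5 (-0.92 ± 0.54) and Myod1 (-0.91 ± 0.24) were not called, and the groups overlapped for Pax7 and Myf5. Whether dividing cells of this kind were fewer was not tested. Those of muscle fibres summed to 164252, 297200 and 261889 CPM in wild type and 156724, 140157 and 128630 in Tsk, and had 0 of 14 called. Wild-type replicate 1, the library highest in the members, held the least muscle of its group, and replicate 2, the lowest in most, held the most. With a muscle score as a covariate all 38 members were below 0 with a median of -0.67, and 0 were called, of 39 genes called in all. In that fit 21 members had an unadjusted p under 0.05, but the share over all genes was not taken, so the count is no result about them. The score was the mean log2 CPM of the muscle markers. A like mean, of log2(CPM + 0.5), was 11.94, 12.88 and 12.67 in wild type and 12.06, 11.93 and 11.79 in Tsk. The score thus followed the groups only in part, with wild-type replicate 1 inside the Tsk range. As a share of counts, muscle markers took 14.5 to 16.6% in Tsk and 16.8 to 24.4% in wild type. Among the other 13 marker lists, every median was above 0. Adipocyte markers summed to 165.1 to 234.4 CPM in wild type and 438.6 to 2508 CPM in Tsk (2 of 8 called higher), and fibroblast markers to 6236 to 10941 and 18397 to 42139 CPM (1 of 8 called higher). Suprabasal epidermis and endothelium each had 3 of 8 called higher, with medians of 0.55 and 0.88. No marker of the 17 lists was at 0 in every library, and the part of cell make-up in the members' values was not tested beyond these figures.

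**Figure D4:**
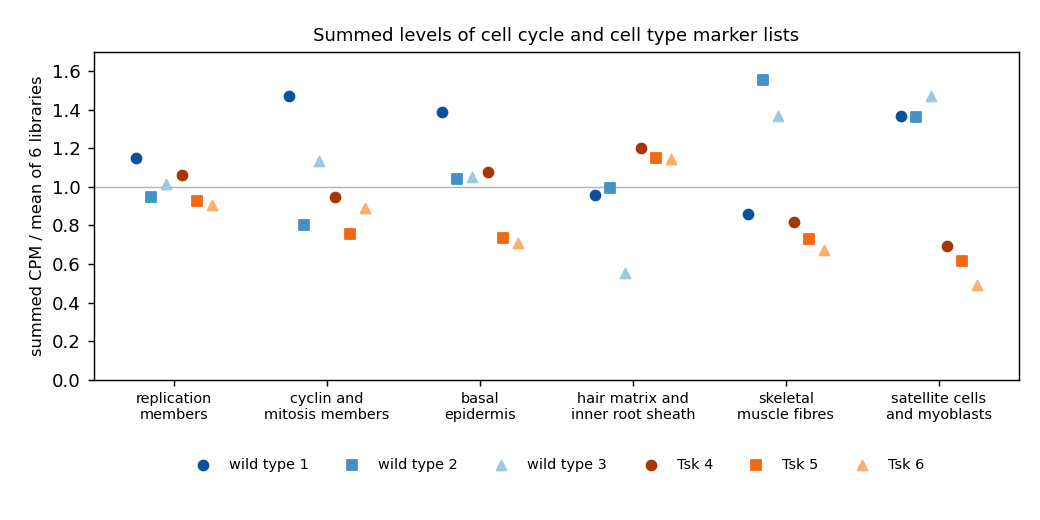
Summed CPM of 2 groups of cell cycle genes and 4 lists of cell type markers in each library, divided by the mean of the 6 libraries (y axis, from 0), with blue points for wild type and orange to brown points for Tsk. Wild-type replicate 1 is highest for both cell cycle groups and for basal epidermis, and lowest of its group for muscle fibres, and the groups separate for satellite cells and myoblasts (69.2 to 74.7 against 24.8 to 35.1 summed CPM) and for hair matrix and inner root sheath.

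Library totals ran from 17561271 to 19219622 counts, and the members took 0.0294 to 0.0562% of them. Ribosomal RNA took 6.11 to 7.81% of counts in wild type and 2.68 to 5.46% in Tsk. With muscle and ribosomal RNA genes taken out before scaling, 37 members were below 0, their median was -0.35 and 0 were called. That fit concerns the scaling only, and any other part of ribosomal RNA in the members' values was not tested. Fbn1 itself held 4684 to 5420 counts in the wild-type libraries and 27971 to 43910 in the Tsk ones (log2 fold change 2.54 ± 0.24, edgeR adjusted p = 0.00401), a count that does not tell the alleles apart.

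Of the 38 members, 7 lie on chromosome 2 with Fbn1, and near that gene an effect of the Tsk allele and one of the donor strain's linked sequence cannot be told apart in a congenic strain. Bub1 lies nearest, 2.29 Mb away, followed by Nusap1 (5.65 Mb), Bub1b (6.66 Mb), Pcna (6.74 Mb), Tpx2 (27.3 Mb), Ube2c (39.3 Mb) and Aurka (46.8 Mb). Ube2c and Aurka, the farthest of the 7, had separated groups, as did 10.6% of all genes in the same direction. Whether distance from Fbn1 bears on the members' values was not tested. The log2 fold changes of the 4 within 10 Mb were -0.68 for Bub1, -0.50 for Nusap1, -0.25 for Bub1b and -0.05 for Pcna.

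Per kb of merged exon, the order of the levels in wild type was led by Pcna, then Mki67 at 5.65 ± 2.15 CPM per kb, Mcm7 at 4.75 ± 0.72, Mcm6 at 4.64 ± 0.72 and Rrm1 at 4.35 ± 0.16 (SD, n = 3 each). Only the gap between Pcna and the next exceeded the SDs, and the next 4 did not differ from their neighbours beyond their spread. Ccne1 was last at 0.39 ± 0.13 CPM per kb, next to Bub1 at 0.52 ± 0.22. Aurka stood at 1.97 ± 0.40 CPM per kb in wild type and 0.99 ± 0.25 in Tsk, rank 16 and rank 25 of the 38, while Pcna was first and Ccne1 last in both groups. Merged exon takes in every annotated exon of a gene, 2400 bases for Pcna and 11012 for Rrm1, and is not the length of 1 transcript. The order therefore depends on the annotation.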

How the data were processed

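Per the labels' protocols, shaved dorsal skin was snap frozen, and total RNA, depleted of ribosomal RNA, went into stranded libraries. The submitters' processing notes name bcl2fastq 2.19.1.403, STAR and Partek 7.0, with the mm10 build. How reads were counted, and with which strand setting, is not given in the sources used here. Estimated counts for each gene were deposited (34.8 to 37.3% per library not whole, so reads of similar genes may be shared), which were rounded. Their deposited CPM values, scaled to library totals, served an alternative fit.

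Counts were tested with edgeR 4.0.16 (R 4.3.3) by quasi-likelihood, with TMM factors and the default filter (minimum count 10, total 15), on 3 against 3 libraries. Benjamini-Hochberg adjustment ran over all 19971 genes tested, with calls at an adjusted p under 0.05. SE is the log2 fold change over the root of the F statistic. CPM in the text uses TMM-adjusted totals. Replicates of a group differed beyond sampling noise in every pair (chi-square per degree of freedom at least 8.12). The procedure was tested on simulated data. Without molecular identifiers, reads are not counts of molecules.

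The 38 members, the 5 pathway lists and the 17 marker lists (292 of 293 symbols matched) were chosen with earlier results of these data known, so their directions are not independent evidence. All members, the 2 most abundant genes of a pathway list with no call, at most 2 per marker list and Fbn1 could be named. Promoters printed are the first 6 by p that held both a CCAAT box and a CHR match, outside chromosome 18. Windows in which GENCODE M21 lists an exon were left out, a condition and the E2F motif both added after the data were seen. Alternatives were other scalings, filters and tools (DESeq2 1.42.0, limma 3.58.1), a muscle covariate and each library left out.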

Additional observations from a re-analysis of the deposited data

How the results depend on the processing

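No paired analysis was possible because the groups share no replicate numbers. No member was called in 17 of 20 alternatives, and 1, Aurka, was called with no filter on low counts, DESeq2 and limma-voom with sample weights. Of the other cell cycle genes 1, Ccnd3, was called with library totals alone, DESeq2, limma-voom with sample weights, limma-trend on deposited CPM with each of 3 pseudocounts, and without wild-type replicate 1. Scaling moved the signs most. With library totals alone 24 members were below 0, 1 had separated groups (2.59% of all genes did), the median was -0.0847 and 1791 genes were called. With limma-trend on log2(deposited CPM + 0.5), + 0.1 and + 1, 21, 20 and 21 members were below 0, 1 had separated groups in each (2.58% of all genes), the medians were -0.0594, -0.0571 and -0.0593, and 1916, 1887 and 1895 genes were called. Over all genes 1157 were called without a filter, 1592 by DESeq2, 1576 by limma-voom with sample weights and 39 with the muscle covariate, where the members' median was -0.67. Leaving out 1 library each gave 63 to 1381 genes called, 0 to 1 other cell cycle genes called, 27 to 38 members below 0, medians from -0.46 to -0.16 and 3 to 22 members with separated groups (14.01 to 20.5% of all genes), while 0 members were called. Why the counts moved was not tested, except that fewer libraries entered those fits. The depth limits the rarest members, such as Ccne1 with 13 to 23 counts per library, for which only large changes are detectable.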

Other observations

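Some further cell cycle genes, named after their values were seen, had non-overlapping groups, lower in Tsk, without passing the test. These were 10 of the 110 further genes tested (9.09%), against 10.6% of all genes, so their number is no result about them. The kinesin Kif22, which pushes chromosome arms toward the metaphase plate, stood at 4.79, 2.85 and 3.29 CPM in wild type and 2.28, 1.54 and 1.98 CPM in Tsk (log2 fold change -0.92 ± 0.27, edgeR adjusted p = 0.106). Estimates in the E2F family had both signs, and none passed. E2f2 and E2f8 both stood at -0.69 ± 0.20, while E2f7 stood at 0.55 ± 0.24 with every Tsk library above every wild-type library (edgeR adjusted p = 0.251), and E2f1 at 0.25 ± 0.18. The S phase genes Clspn and Tk1 stood at -0.61 ± 0.21 and -0.55 ± 0.19. The inhibitor Cdkn2c stood at 8.40, 6.22 and 5.72 CPM in wild type and 9.49, 17.6 and 8.14 CPM in Tsk, where Tsk replicate 5 stood above the others and Tsk replicate 6 lay below the highest wild-type library (0.79 ± 0.30, edgeR adjusted p = 0.194).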
